A study of Mus musculus with 24 samples.

Results

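The genes described here are 47 genes of the cell cycle and mitosis, chosen by name, of which 46 were measured among the 18193 genes of the arrays. Where a gene had several probe sets, the brightest on average was used. Ccnb1, the mitotic cyclin B1, had no probe set under its symbol in the annotation used and was not analysed here. The tissue was shaved dorsal skin from between the shoulders of female RAG2-/- mice, measured on 24 Affymetrix arrays, 4 in each of 6 groups. All recipients lack RAG2, which antigen receptor assembly requires, and so cannot form their own T and B cells. Syngeneic mice received Balb/c splenocytes and were sampled at day 14 or day 28. GVH-SSc mice, a graft-versus-host model of scleroderma, received B10.D2 splenocytes together with either an isotype antibody or anti-IFNAR1, which targets 1 subunit of the receptor for type I interferons, and were sampled on the same days. No antibody is named for syngeneic mice, and the ages are not stated. The labels do not say that the arrays of a group are separate animals, so a p-value here reflects array-to-array spread alone, which may be technical.

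A cell that divides copies its DNA in S phase and separates the copies in mitosis. Genes for replication are switched on by E2F factors, and genes for mitosis later by B-Myb and FoxM1, which work with the MuvB complex at promoter elements called CHR. In skin, dividing cells sit mostly in the basal epidermis and in the matrix of growing hair follicles, and infiltrating lymphocytes can divide as well. Wounded or inflamed epidermis divides more often, and hair growth brings a burst of division together with hair keratin synthesis. In whole skin, fewer cells of a type and less RNA per cell cannot be told apart.

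Levels are given as log2(intensity + 16), on which a value of 4 is the lowest possible, and changes are differences of group means on that scale ± SE from limma with 4 arrays per group. The offset shrinks changes of dim genes. A gene is called changed at an adjusted p under 0.05 over all 18193 genes. Array medians of intensity ran from 14.8 to 17.7. Of the 46 genes, 41 had a mean above 5.72, the level below which the dimmest 40% of all genes lie. The 5 below it were Mybl2, Foxm1, Cdc45, Tyms and Chek1. The tissue label was borne out by 12 of 12 skin markers, whose mean ran from 12.63 to 14.19 over the arrays. The Gapdh 3'/5' log2 ratio, a control for intact RNA and labelling, ran from 0.62 to 6.36 and exceeded 4 on 5 arrays.

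The mean of the 46 genes was highest in GVH-SSc skin with isotype antibody on both days and lower on most arrays of the other groups. At day 14 it was 8.62, 8.58, 8.63 and 8.0 in isotype skin, 8.28, 7.98, 7.05 and 7.59 in syngeneic skin, and 7.85, 7.37, 7.64 and 7.62 in anti-IFNAR1 skin. All 4 isotype arrays lay above all 4 anti-IFNAR1 arrays, whereas 1 syngeneic array lay above the lowest isotype array. At day 28 it was 8.66, 8.20, 8.23 and 8.95 in isotype skin, 7.68, 7.27, 8.03 and 8.06 in syngeneic skin, and 7.16, 8.95, 7.36 and 7.43 in anti-IFNAR1 skin. The isotype arrays lay above all syngeneic arrays and above 3 of the 4 anti-IFNAR1 arrays. The exception, anti-IFNAR1 replicate 2, was the highest array of its group for 45 of the 46 genes. It also had the highest hair keratin level of the series. Because the genes are correlated within an array and the list was chosen with results in view, this mean carries no p-value.

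**Figure D1:**
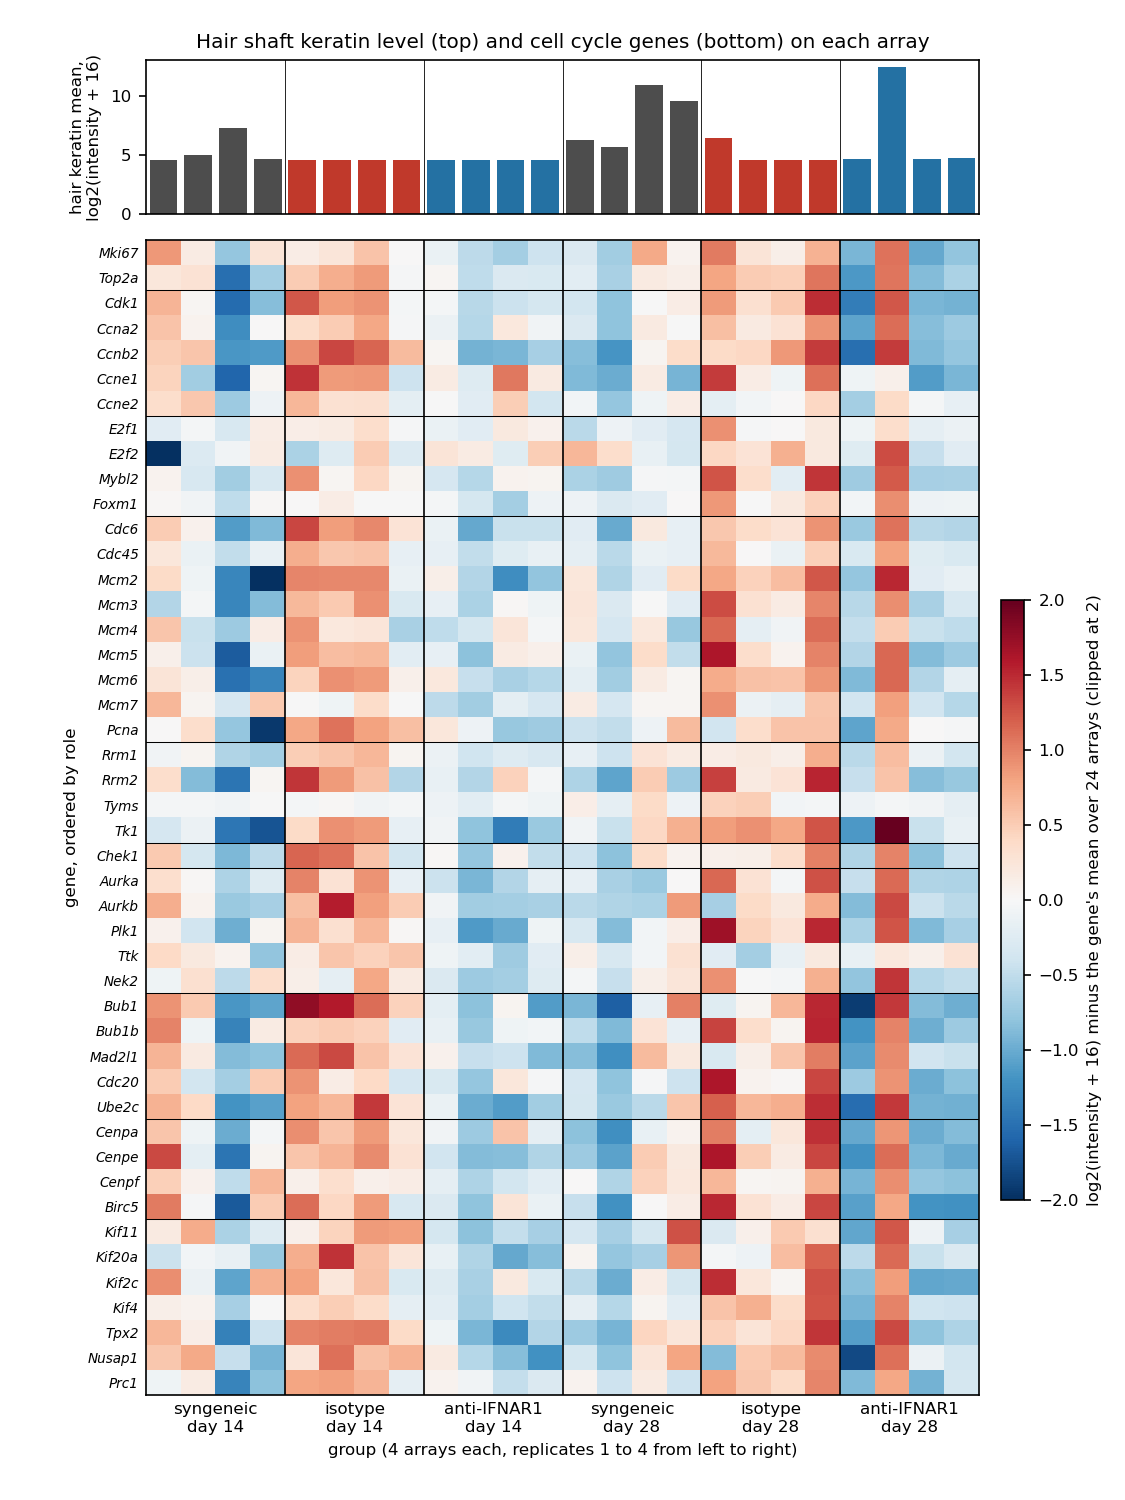
Heat map of the 46 genes (rows, ordered by role) on the 24 arrays (columns, by group), coloured by log2(intensity + 16) minus the gene's mean over all arrays and clipped at 2 either way, under a bar chart of the mean of 12 hair shaft keratins in log2(intensity + 16). The isotype columns are mostly red on both days, and the single red column among the anti-IFNAR1 arrays of day 28 is replicate 2, whose hair keratin mean is 12.39.

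Many promoters of these genes carry matches to elements that cell cycle factors read, and a few are shown as description. They are the 150 bases before the start site, 5' to 3', from the RefSeq promoter table on GRCm38.p6: Mki67 at chr7:135716380-135716529 on the minus strand; Cdk1 at chr10:69352913-69353062 on the minus strand; Ube2c at chr2:164769779-164769928 on the plus strand. The replication genes are Mcm6 at chr1:128359706-128359855 on the minus strand, Mcm3 at chr1:20820313-20820462 on the minus strand and Pcna at chr2:132253181-132253330 on the minus strand. Capitals mark matches, on either strand, to the CHR (TTTGAA or TTCGAA), to CCAAT and to an E2F motif (TTTCCCGC, TTTCGCGC, TTTGCCGC or TTTGGCGC). E2F matches may overlap each other, as a pair does in Mcm6.
Mki67: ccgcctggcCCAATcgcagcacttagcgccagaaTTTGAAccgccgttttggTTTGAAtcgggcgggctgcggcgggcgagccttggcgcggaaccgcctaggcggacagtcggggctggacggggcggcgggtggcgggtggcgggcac
Cdk1: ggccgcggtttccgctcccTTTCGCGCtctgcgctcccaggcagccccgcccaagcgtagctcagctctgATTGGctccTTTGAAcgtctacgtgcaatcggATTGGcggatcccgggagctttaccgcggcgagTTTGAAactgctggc
Ube2c: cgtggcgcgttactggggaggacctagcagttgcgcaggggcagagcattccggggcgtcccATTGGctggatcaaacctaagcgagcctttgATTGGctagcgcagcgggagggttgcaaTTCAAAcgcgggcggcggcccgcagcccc
Mcm6: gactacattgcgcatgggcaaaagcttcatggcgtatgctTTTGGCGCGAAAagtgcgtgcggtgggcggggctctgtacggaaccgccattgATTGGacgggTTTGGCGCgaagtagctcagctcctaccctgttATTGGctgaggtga
Mcm3: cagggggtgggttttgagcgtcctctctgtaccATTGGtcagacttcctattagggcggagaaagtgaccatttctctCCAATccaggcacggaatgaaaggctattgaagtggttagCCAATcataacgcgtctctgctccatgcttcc
Pcna: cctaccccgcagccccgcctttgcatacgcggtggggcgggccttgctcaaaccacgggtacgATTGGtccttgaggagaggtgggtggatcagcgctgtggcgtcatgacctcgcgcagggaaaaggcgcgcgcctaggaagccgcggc

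Mki67 and Cdk1 each hold 2 CHR matches in the stretch shown and Ube2c holds 1, all with CCAAT nearby, while the stretches of Mcm6, Mcm3 and Pcna hold none. The RefSeq table had promoters for 40 of the 47 genes, 43 in all, each from 250 bases before to 50 bases after the start. A CHR match was present in 51.2% of these 43, against 19.2% of all 32851 promoters of the table. CCAAT was present in 74.4% against 37.4%, and the E2F motif in 16.3% against 2.3%. Among the 25 promoters of mitosis and cyclin genes, 72.0% held a CHR, 80.0% a CCAAT and 4.0% an E2F match. Among the 18 of replication, nucleotide, checkpoint and transcription factor genes, 22.2% held a CHR, 66.7% a CCAAT and 33.3% an E2F match. The difference between these sets was not tested. A match is a string of letters and not evidence of binding. The genes Mcm4, Foxm1, Ccne2, Ccna2, Aurkb, Tpx2 and Kif20a had no entry in the table.

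The comparison of isotype with syngeneic skin at day 14 asks how the B10.D2 splenocytes, with the isotype antibody, alter cell cycle genes early. Of the 46 genes, 3 were called higher and none was called lower. They were Pcna, the sliding clamp of DNA polymerase, Mcm3, a subunit of the replicative helicase, and Rrm1, the large subunit of the enzyme that makes deoxynucleotides. The calls, 3 of 46, are close to the share of all genes called higher, 5.29%, and 8.3% of all genes were called lower. No mitosis gene was among the 3, but so few calls do not set replication genes apart from mitosis genes.

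Pcna was at 11.67, 12.01, 10.89 and 9.73 in syngeneic and at 12.44, 12.75, 12.46 and 12.26 in isotype skin. Every isotype array lay above every syngeneic array, and the means differed by 1.40 ± 0.43 (limma adjusted p = 0.038). Mcm3 was at 8.70, 9.25, 7.98 and 8.43 in syngeneic and at 9.94, 9.82, 10.20 and 8.99 in isotype skin. The groups overlapped in 1 isotype array, replicate 4, and the change was 1.15 ± 0.35 (adjusted p = 0.035). Rrm1 was at 8.78, 8.91, 8.25 and 8.17 in syngeneic and at 9.34, 9.40, 9.51 and 8.90 in isotype skin, a change of 0.76 ± 0.23 (adjusted p = 0.035), with the lowest isotype array just under the highest syngeneic one. These calls are weakly held. Each was lost in 5 of the 8 fits that left out 1 of the 8 arrays. The count of called genes was then 0 without syngeneic replicate 3 or 4 or isotype replicate 1, 2 or 3, and 11 without isotype replicate 4. The share of all genes called in those fits is not given here. The count was also 0 in a fit of these 8 arrays alone and 18 with array weights, where 8.04% of all genes were called higher.

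Most of the other genes had positive differences that did not pass the test. Of the 46, 44 were positive, with a median of 0.71, whereas 34.3% of all genes were positive and their median was -0.01. By role, the median was 1.15 for 9 licensing and replication fork genes, 1.14 for 5 cyclins and Cdk1, 1.03 for 5 spindle checkpoint and anaphase genes and 0.63 for 5 mitotic kinases. Mki67, the standard proliferation antigen, differed by only 0.12 ± 0.41 (adjusted p = 0.89). The groups did not overlap for 3 genes, Pcna, the mitotic cyclin Ccnb2 and the cytokinesis motor Kif20a, beside 5.11% of all genes. Ccnb2 was at 8.10, 8.17, 6.44 and 6.48 in syngeneic and at 8.52, 8.95, 8.77 and 8.24 in isotype skin, a difference of 1.32 ± 0.54 (adjusted p = 0.11). The syngeneic arrays formed a high and a low pair. The SE of this test comes from the spread within all 6 groups together.

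Anti-IFNAR1 skin at day 14 was compared with isotype skin to ask whether the receptor antibody alters these genes in GVH-SSc skin. None of the 46 was called by limma, although 23 had an unadjusted p under 0.05, beside 16.9% of all genes. Few genes of any kind were called, 0.654% lower and 0.159% higher. The difference was negative for 45 of the 46 genes, with a median of -0.73 beside 0 for all genes. In 23 of the 46 every anti-IFNAR1 array lay below every isotype array, beside 7.51% of all genes. The Gapdh 3'/5' log2 ratio also differed between these arrays. It ran from 0.62 to 2.16 in isotype and from 2.13 to 4.81 in anti-IFNAR1 skin of day 14. Its part in the lack of overlap was not tested.

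Those 23 spanned the cycle. They held the proliferation antigen Mki67, the mitotic kinase Cdk1 and its cyclin Ccnb2, Foxm1, the replication genes Cdc6, Mcm7, Pcna and Rrm1, the kinases Aurka, Aurkb, Plk1, Ttk and Nek2, the checkpoint and anaphase genes Bub1, Mad2l1 and Ube2c, the centromere proteins Cenpe and Cenpf, and the spindle proteins Kif11, Kif20a, Kif4, Tpx2 and Nusap1. Mki67 was at 11.28, 11.37, 11.70 and 11.13 in isotype and at 10.99, 10.60, 10.45 and 10.71 in anti-IFNAR1 skin. Its groups did not overlap, and the means differed by -0.69 (two-sided exact permutation test, p = 0.0286, the smallest that 4 against 4 arrays allow, and 0.171 adjusted over 12 such tests). The 4 genes with the most negative differences were Bub1, Ccnb2, Tpx2 and Ube2c.

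Bub1, a kinase of the spindle checkpoint, was at 8.17, 7.99, 7.52 and 6.86 in isotype and at 6.20, 5.58, 6.46 and 5.28 in anti-IFNAR1 skin. All anti-IFNAR1 arrays were lower, by -1.76 ± 0.67 in the means (limma adjusted p = 0.19). Ube2c, the ubiquitin-conjugating enzyme of the anaphase-promoting complex, was at 9.38, 9.24, 9.98 and 8.84 in isotype and at 8.44, 7.58, 7.45 and 7.87 in anti-IFNAR1 skin, without overlap (-1.52 ± 0.53, adjusted p = 0.16). Ccnb2 differed by -1.63 ± 0.54 and Tpx2, which builds spindle microtubules, by -1.58 ± 0.50, with adjusted p of 0.14 and 0.12. The Tpx2 difference rests on the probe set used. Another of its probe sets, also above 5.72 with a mean of 6.27, did not differ (-0.0). With array weights 21 of the 46 were called lower, beside 7.9% of all genes. With the hair keratin level and the Gapdh ratio in the fit none was, beside 0.429%.

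Anti-IFNAR1 skin was also set against syngeneic skin, to see what remained of the difference. No gene of the 46 was called on either day, beside 1.12% of all genes at day 14 and 0.033% at day 28. The medians were -0.16 and -0.04. Of the genes, 1 and 0 had an unadjusted p under 0.05, beside 14.3% and 2.03% of all genes. At day 28 the median ran from -0.43 to 0.17 over the fits that left out 1 array. The mean of the 46 genes was then 8.95 on anti-IFNAR1 replicate 2 and 7.16, 7.36 and 7.43 on the other arrays of its group. In syngeneic skin of that day it ran from 7.27 to 8.06. At day 14 Plk1, the kinase that drives mitotic entry, was at 6.82, 6.35, 5.77 and 6.80 in syngeneic and 6.57, 5.61, 5.73 and 6.66 in anti-IFNAR1 skin, and the groups overlapped. This does not show that the groups were equal.

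At day 28 isotype skin was again compared with syngeneic skin. A pair of the 46 genes rose, beside 6.66% of all genes called higher and 9.69% called lower. They were E2f1, a transcription factor for S phase genes, and Kif4, a chromosome-bound motor. Differences were positive for 45 of the 46 genes, against 46.8% of all genes, and the median was 0.81. For 15 of the 46 the groups did not overlap, beside 8.09% of all genes.

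E2f1 was at 6.69, 7.13, 7.0 and 6.89 in syngeneic and at 8.14, 7.20, 7.23 and 7.42 in isotype skin. The groups did not overlap, replicate 1 stood above the other isotype arrays, and the change was 0.57 ± 0.18 (limma adjusted p = 0.032). Kif4 was at 6.45, 6.07, 6.69 and 6.43 in syngeneic and at 7.21, 7.35, 7.0 and 7.89 in isotype skin, again without overlap (0.95 ± 0.30, adjusted p = 0.037). The other 13 without overlap were Top2a, the topoisomerase that untangles chromosomes, Cdk1, Ccnb2, Cdc6, Cdc45, Mcm2, Mcm6, Tk1, Plk1, Cdc20, Ube2c, Birc5 and Prc1. Ube2c was at 8.21, 7.82, 8.03 and 9.12 in syngeneic and at 9.76, 9.24, 9.29 and 10.05 in isotype skin, a difference of 1.29 ± 0.53 (adjusted p = 0.12). Plk1 was at 6.42, 5.88, 6.68 and 6.87 in syngeneic and at 8.44, 7.19, 7.02 and 8.24 in isotype skin, a difference of 1.26 ± 0.43 (adjusted p = 0.054). The isotype arrays of Plk1 comprised 2 higher, replicates 1 and 4, and 2 lower ones that still lay above the syngeneic arrays.

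The lowest median by role was 0.43 for mitotic kinases and the highest was 1.17 for centromere and passenger proteins. Ttk, a spindle checkpoint kinase, was the only gene with a negative difference (-0.23 ± 0.22, adjusted p = 0.64). No gene was called when syngeneic replicate 1 or 4 or isotype replicate 1 or 4 was left out, and 7 were when isotype replicate 3 was. The share of all genes called in those fits is not given here. With array weights 26 were called higher, beside 12.9% of all genes, and 1 lower.

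**Figure D2:**
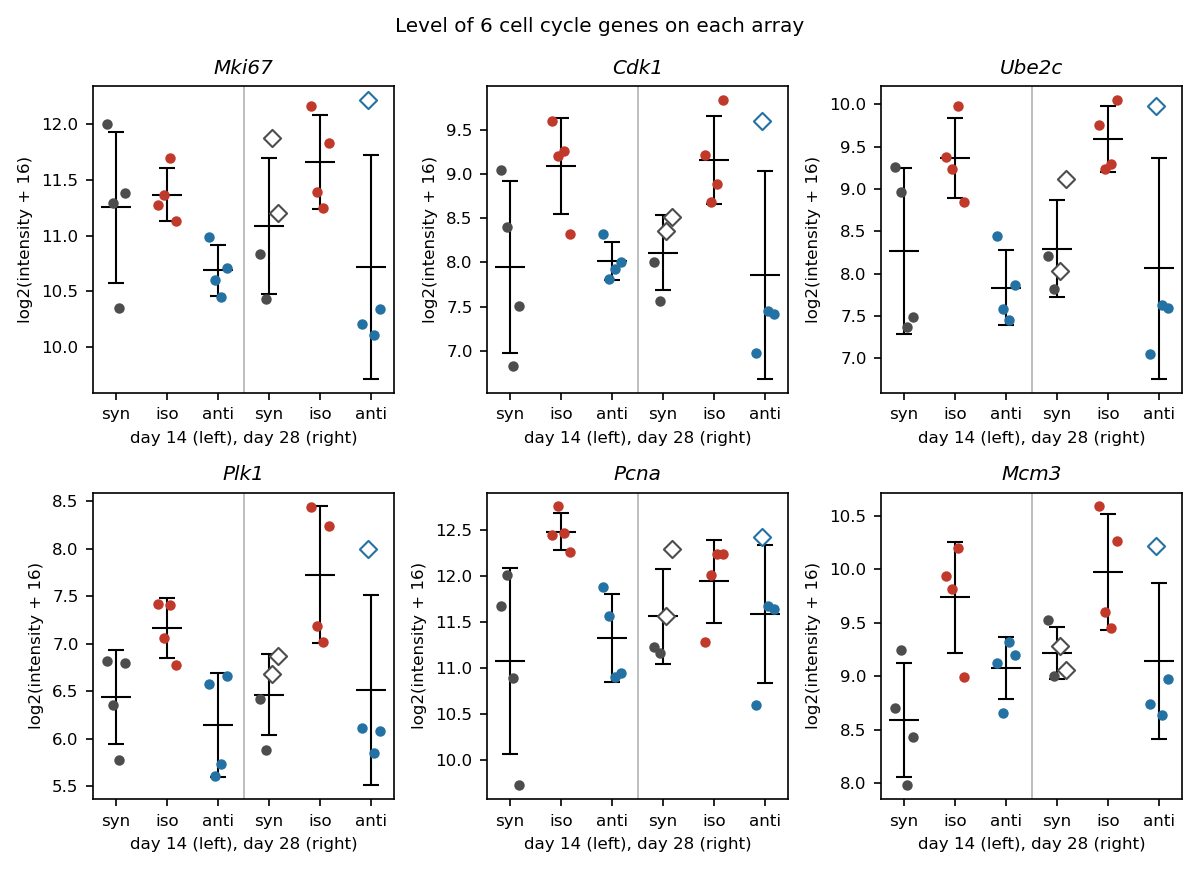
Level in log2(intensity + 16) of 6 cell cycle genes on each of 24 arrays, by group (syn, syngeneic; iso, GVH-SSc isotype; anti, GVH-SSc anti-IFNAR1), with the mean and SD (n = 4) as bars; open diamonds are the 3 arrays with a hair keratin mean above 8.46. The isotype arrays of Ube2c lie between 8.84 and 10.05, and the anti-IFNAR1 array that reaches 9.98 at day 28 is the open diamond.

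Anti-IFNAR1 skin at day 28 was compared with isotype skin in the same way, and here a single array decided the count. With all arrays none of the 46 was called and none was free of overlap, beside 4.89% of all genes called lower, 8.42% called higher and 6.85% without overlap in the lower direction, although 45 differences were negative (median -0.83) and 23 had an unadjusted p under 0.05, beside 24.9% of all genes. Mki67 was at 12.17, 11.39, 11.25 and 11.83 in isotype and at 10.21, 12.22, 10.11 and 10.34 in anti-IFNAR1 skin. Replicate 2 held the highest Mki67 of all 24 arrays and the other 3 anti-IFNAR1 arrays lay below every isotype array. The means differed by -0.94 (two-sided exact permutation test, p = 0.143, adjusted 0.257).

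Without replicate 2, a choice made after its values were seen, 27 of the 46 genes were called lower, beside 5.55% of all genes, and the median was -1.24. For 39 of the 46 the remaining 3 arrays lay below all 4 isotype arrays, beside 10.5% of all genes. Mki67 then differed by -1.44 ± 0.34 (limma adjusted p = 0.0070). Ube2c differed by -2.16 ± 0.44 (adjusted p = 0.0028), Birc5, the survivin of the chromosomal passenger complex, by -1.98 ± 0.53 (adjusted p = 0.016) and Cdk1 by -1.87 ± 0.42 (adjusted p = 0.0055). Every one of 4 centromere and passenger genes and both proliferation markers were called lower, with 3 of 5 spindle checkpoint and anaphase genes, 4 of 9 replication genes and 1 of 4 transcription factors. Ttk differed by 0.30 ± 0.25 (adjusted p = 0.55) and was again the exception in sign. With array weights, which give an outlying array less say, 28 were called lower, beside 10.3% of all genes, and 1 higher.

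Hair growth was set against the cell cycle genes because hair matrix cells divide. The level used was the mean of 12 hair shaft keratins. It lay at 4.53 to 4.59 on all 8 GVH-SSc arrays of day 14, near the lowest possible value, and at 4.58, 4.97, 7.27 and 4.65 on the syngeneic ones. At day 28 it was 6.28, 5.62, 10.87 and 9.50 in syngeneic, 6.38, 4.54, 4.53 and 4.57 in isotype and 4.64, 12.39, 4.61 and 4.77 in anti-IFNAR1 skin. The 3 arrays above 8.46, midway between the lowest and highest arrays, were syngeneic replicates 3 and 4 and anti-IFNAR1 replicate 2 of day 28. Isotype skin, with the highest cell cycle levels, thus had nearly no hair keratin on 7 of its 8 arrays.

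**Figure D3:**
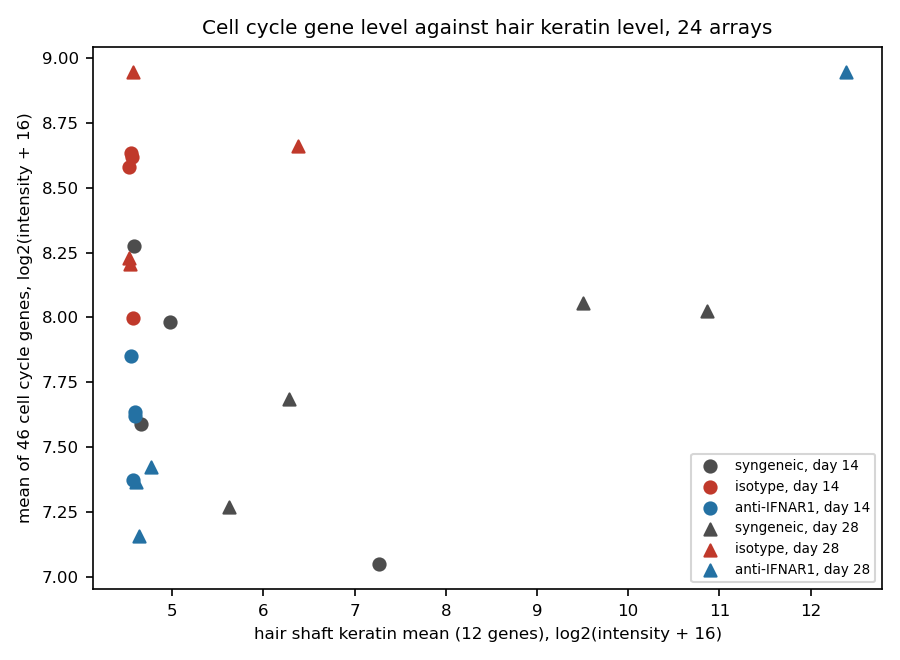
Mean of the 46 cell cycle genes against the mean of 12 hair shaft keratins on each of 24 arrays, both in log2(intensity + 16), by group. The anti-IFNAR1 array of day 28 at 12.39 on the hair axis reaches 8.95, as high as the highest isotype array, whereas the other isotype and anti-IFNAR1 arrays near the left edge spread from 7.16 to 8.95 with hardly any hair keratin.

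Within groups, the slope on hair keratin level was positive for 46 of the 46 genes, against 38.9% of all genes, with a median of 0.16 per log2 unit (0.03 to 0.26). A total of 3 passed the test, beside 2.3% of all genes called higher. They were Mki67 (0.21 ± 0.05, limma adjusted p = 0.042), the centrosome kinase Nek2 (0.19 ± 0.05, adjusted p = 0.039) and Cenpf, a kinetochore protein (0.17 ± 0.04, adjusted p = 0.041). Cenpf was at 7.18, 9.05, 7.34 and 7.30 in anti-IFNAR1 skin of day 28 and at 8.12, 7.51, 8.58 and 8.33 in syngeneic skin of that day. Replicate 2 was far above its group, and in syngeneic skin the 2 arrays with the most hair keratin were the higher ones. The slope leaned on anti-IFNAR1 replicate 2. Without that array its median was 0.04 and no gene was called. None was called either without syngeneic replicate 2 or 4, isotype replicate 1 or any other anti-IFNAR1 array of day 28. Without syngeneic replicate 3 of day 14, 23 were called, and the share of all genes called in that fit is not given here. Over the 21 arrays below 8.46 the median was -0.19 and no gene was called. That syngeneic array had the lowest value of its group for 38 of the 46 genes although its hair keratin was the highest there.

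Setting the hair keratin level in the fit changed the day 28 counts. Isotype against syngeneic skin then had 29 genes called higher, with a median of 1.26, beside 6.64% of all genes, and anti-IFNAR1 against isotype skin had 20 called lower, with a median of -1.05, beside 5.36%. The first of these counts depended on the same array. With it left out and the hair level in the fit, 3 genes were called higher, beside 3.4% of all genes, and with it left out and no hair level 10 were, beside 6.99%. At day 14 the hair level gave 11 called higher, beside 5.8% of all genes. With the Gapdh ratio added, the counts were 14, 31 and 23, beside 6.07% of all genes for isotype skin at day 14, 8.5% at day 28 and 6.8% for anti-IFNAR1 skin at day 28.

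**Figure D4:**
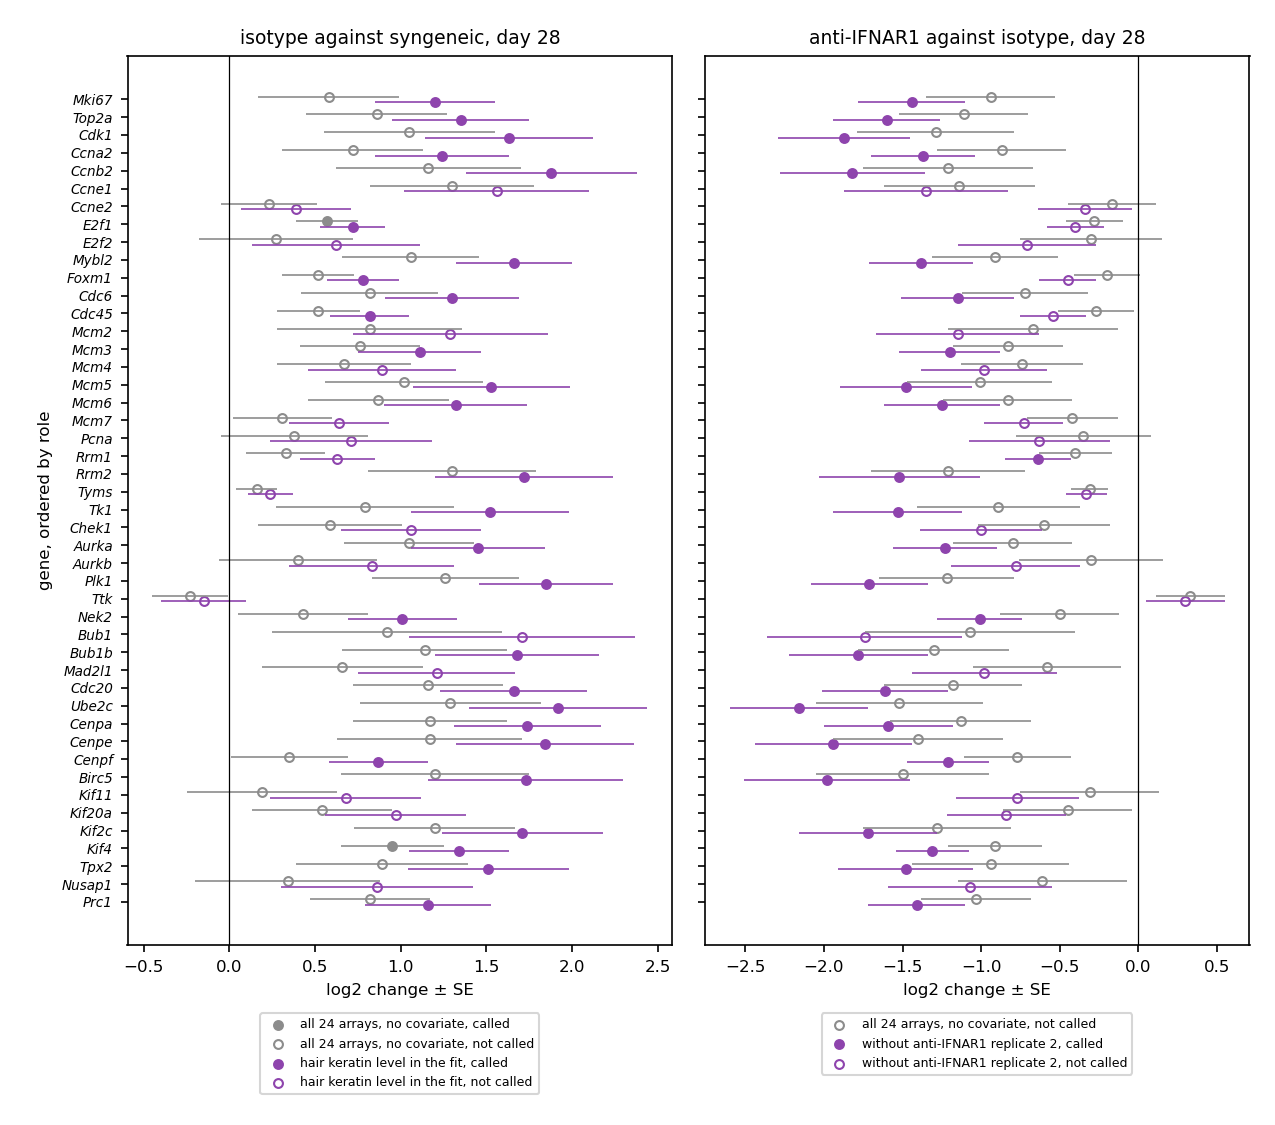
Change ± SE (log2) of each of 46 genes at day 28, isotype against syngeneic (left) and anti-IFNAR1 against isotype (right), in the fit of all 24 arrays (grey) and in another fit (purple), with filled points for genes called at an adjusted p under 0.05. On the left 2 genes are filled in grey and 29 in purple, where the hair keratin level is in the fit, a count that drops to 3 without anti-IFNAR1 replicate 2; on the right none and 27 are filled, where that array is left out.

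Other cells and signals moved with the same groups. Among all genes, 5.29% at day 14 and 6.66% at day 28 were called higher in isotype against syngeneic skin. With anti-IFNAR1, 0.654% and 4.89% were called lower. Of 12 T cell markers, 5 of them with a mean above 5.72, 11 rose at day 14 and 11 at day 28 in isotype against syngeneic skin, and 5 and 11 fell with anti-IFNAR1. Their mean at day 14 ran from 4.83 to 5.47 in syngeneic, 6.82 to 7.39 in isotype and 5.70 to 6.27 in anti-IFNAR1 skin. At day 28 it ran from 4.76 to 5.01 in syngeneic, 6.60 to 6.96 in isotype and 5.37 to 5.61 in anti-IFNAR1 skin, and anti-IFNAR1 replicate 2 was at 5.41, within its group. Of 8 wound-associated keratinocyte genes, 7 and 8 rose and 0 and 7 fell, and their mean at day 28 ran from 7.27 to 9.19, 14.04 to 15.06 and 8.45 to 10.30 in the same order. The array at 10.30 was anti-IFNAR1 replicate 2. Of 11 macrophage markers, 9 rose on each day, and 1 and 6 fell with anti-IFNAR1. Of 7 neutrophil markers, 3 of them with a mean above 5.72, 4 and 6 rose, and 0 and 6 fell. Among them S100a8 is also in the wound-associated list. Of 5 B and plasma cell markers, 1 of them above 5.72, 1 rose on each day, and 0 and 1 fell. The part of these cells in the cell cycle values was not tested. Within isotype skin of day 14, replicate 4 had the lowest value for 36 of the 46 genes. Its wound keratinocyte mean was 8.78, against 13.31 to 14.32 on the other arrays of that group. It was also the lowest there in neutrophil mean (6.24, against 7.36 to 8.69), macrophage mean (11.32, against 11.43 to 11.70) and Gapdh ratio (0.62). Its T cell mean, 6.97, lay within the range of its group, and the source of its low values was not tested.

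The Gapdh ratio also moved with some genes. Its slope was called higher for 7 of the 46, beside 23.7% of all genes, and lower for 3, beside 15.8%. The positive ones included the G1/S cyclin Ccne1 (0.33 ± 0.07 per log2 unit, limma adjusted p = 0.0018) and the ribonucleotide reductase subunit Rrm2 (0.30 ± 0.08, adjusted p = 0.0089), and the negative ones Pcna (-0.29 ± 0.07, adjusted p = 0.0024). Ccne1 was at 8.98, 7.73, 7.49 and 8.69 in isotype skin of day 28, where the ratio was 4.59, 1.70, 1.07 and 2.70. The 2 arrays with the highest Ccne1 had the highest ratios. Rrm2 was at 12.72, 11.54, 11.62 and 12.87 there, with the same 2 arrays on top. Pcna was lowest on syngeneic replicate 4 of day 14, at 9.73, the array with the highest ratio, 6.36. Without the 5 arrays above 4 no gene of the 46 was called in isotype against syngeneic skin on either day, although the medians were 0.74 and 0.88. With the ratio as the only covariate 4 and 7 were called higher, with medians of 0.85 and 0.82.

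The remaining genes chosen for display are given for isotype skin of day 28 beside either syngeneic or anti-IFNAR1 skin of that day. Top2a was at 11.25, 10.96, 10.94 and 11.52 in isotype skin of day 28 and at 10.24, 9.80, 10.63 and 10.58 in syngeneic skin, without overlap. Birc5 was at 10.43, 9.22, 9.08 and 10.26 in isotype and 8.46, 7.71, 8.94 and 9.07 in syngeneic skin of that day. Both genes act at mitotic chromosomes. Mcm5, a helicase subunit, was at 12.88, 11.62, 11.33 and 12.26 in isotype and 10.68, 12.42, 10.40 and 10.54 in anti-IFNAR1 skin of day 28, where only replicate 2 reached the isotype range. Foxm1, the activator of mitosis genes, was dim, at 6.35, 5.47, 5.68 and 5.94 in isotype and 5.39, 5.20, 5.26 and 5.49 in syngeneic skin of day 28. Its lowest isotype array lay just below the highest syngeneic one.

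Between days, no gene of the 46 was called. Beside that count of 0 for each, 0.077% of all genes were called between days in syngeneic, 2.2% in isotype and 0.555% in anti-IFNAR1 skin, and 0, 2 and 1 of the 46 had an unadjusted p under 0.05, beside 9.08%, 14.7% and 13% of all genes. The change of the isotype effect from day 14 to day 28 gave no call among the 46 (0.044% of all genes), nor did that of the anti-IFNAR1 effect (0.0715%), and 1 of the 46 had an unadjusted p under 0.05 in each, beside 9.76% and 13.6% of all genes.

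Of 93 other measured genes of the cell cycle, those called included several of the 8 CDK inhibitors, the brakes of the cycle. At day 28 Cdkn1c (p57) and Cdkn2c (p18) fell in isotype against syngeneic skin and rose with anti-IFNAR1, and Cdkn1b (p27) moved likewise. Both comparisons share the isotype arrays. Cdkn1c was at 8.03, 8.43, 7.37 and 8.40 in syngeneic, 6.52, 7.17, 6.97 and 6.57 in isotype and 7.64, 7.96, 7.80 and 8.24 in anti-IFNAR1 skin. The isotype arrays lay below all others, with a change of -1.25 ± 0.30 against syngeneic skin (limma adjusted p = 0.0072), and anti-IFNAR1 skin was 1.10 ± 0.30 above them (adjusted p = 0.019). Anti-IFNAR1 replicate 2, high in the cell cycle genes, lay inside its group here.

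Cdkn2c was at 8.35, 8.75, 8.87 and 10.07 in syngeneic, 6.94, 7.59, 8.19 and 6.93 in isotype and 8.97, 8.89, 8.73 and 9.32 in anti-IFNAR1 skin of day 28. Again the isotype arrays were the lowest 4 of the 12, with changes of -1.59 ± 0.40 (adjusted p = 0.0098) and 1.57 ± 0.40 (adjusted p = 0.013). The Cdkn1c and Cdkn2c calls against syngeneic skin held in all 8 fits that left out 1 array, and those with anti-IFNAR1 in 5 and 7 of 8. The slope on the Gapdh ratio was called lower for Cdkn2c (-0.22 ± 0.07, adjusted p = 0.020), Cdkn2b and Cdkn2d and not for Cdkn1a, Cdkn1b or Cdkn1c. With that ratio in the fit the Cdkn2c changes were -1.55 (adjusted p = 0.0029) and 1.48 (adjusted p = 0.0053). Without the arrays of ratio above 4 they were -1.48 and 1.41, both at an adjusted p of 0.065. Cdkn1b was at 11.48, 11.45, 11.88 and 11.63 in syngeneic and 10.89, 11.08, 10.58 and 11.38 in isotype skin of day 14, without overlap (-0.63 ± 0.16, adjusted p = 0.013, also called in all 8). At day 28 its changes were -0.56 ± 0.16 (adjusted p = 0.017) and 0.48 ± 0.16 with anti-IFNAR1 (adjusted p = 0.048), called in 6 and in only 2 of the 8 fits without 1 array. Cdkn1a (p21), a target of p53, went the other way. It was at 12.68, 12.69, 12.82 and 12.23 in syngeneic and 13.33, 13.12, 12.66 and 13.04 in isotype skin of day 28 (0.43 ± 0.13, adjusted p = 0.028, called in 4 of the 8 fits), and its difference with anti-IFNAR1 was -0.27 ± 0.13 (adjusted p = 0.21).

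**Figure D5:**
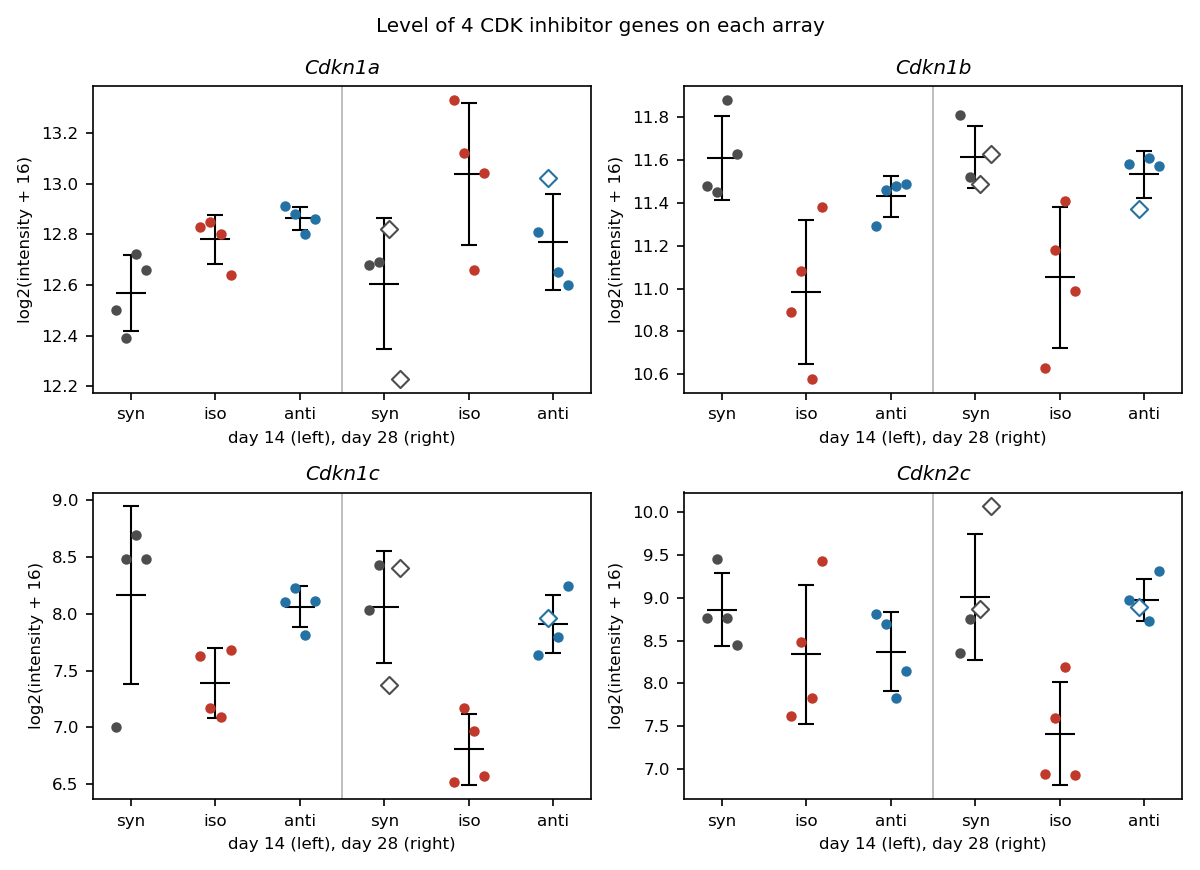
Level in log2(intensity + 16) of 4 CDK inhibitor genes on each of 24 arrays by group (syn, syngeneic; iso, GVH-SSc isotype; anti, GVH-SSc anti-IFNAR1), with mean and SD (n = 4) as bars and the 3 arrays of high hair keratin as open diamonds. At day 28 the isotype arrays of Cdkn1c lie between 6.52 and 7.17, below all 8 other arrays of that day.

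At day 14, 7 of the 93 rose and 1, Cdkn1b, fell in isotype against syngeneic skin, where 5.29% of all genes were called higher and 8.3% lower. Replication genes made up 4 of the 7, namely Gins1 (1.44 ± 0.44, adjusted p = 0.035), Pola1, the DNA polymerase alpha subunit that starts strands (1.25 ± 0.33, adjusted p = 0.017), Rfc3 (0.92 ± 0.29) and Gins2 (0.74 ± 0.19), and the others were Cdkn3, Ccnd3 and the motor Kif18a. Kif18a fell with anti-IFNAR1 (-0.41 ± 0.08, adjusted p = 0.023), the single call there, but its mean of 4.86 lies close to the lowest possible value. At day 28, Cdk6, a G1 kinase, rose by 1.30 ± 0.40 (limma adjusted p = 0.030) and fell with anti-IFNAR1 (-1.35 ± 0.40, adjusted p = 0.029). Pttg1, which encodes securin, rose by 1.05 ± 0.34 (adjusted p = 0.040) and fell with anti-IFNAR1 (-1.09 ± 0.34, adjusted p = 0.039). The Cdk6 and Pttg1 calls held in 3 or 4 of the 8 fits without 1 array. These genes, with Cdkn1a and the 3 inhibitors above, were all of the calls at day 28. Against syngeneic skin that is 3 of 93 higher and 3 lower, beside 6.66% and 9.69% of all genes, and with anti-IFNAR1 3 higher and 2 lower, beside 8.42% and 4.89%. On hair keratin level, 5 of the 93 were called, with positive slopes, beside 2.3% of all genes, among them Ccnd1, the cyclin of G1 entry (0.16 ± 0.03 per log2 unit, adjusted p = 0.0033), and Brca1 (0.25 ± 0.06, adjusted p = 0.016).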

How the data were processed

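Biotin-labelled cRNA from total RNA of 24 skin samples was hybridised to Affymetrix arrays, per the labels. The deposited values are probe set signals of linear intensity, from 1.68 to 92640. The method by which the authors summarised and normalised the probes is not given in the sources used. Array medians are close, and no 2 arrays held identical values. Of 45101 probe sets, 64 controls, 932 with several symbols and 9160 without a listed symbol were left out. The 34945 with 1 symbol, 34741 of them updated through gene identifiers, gave 18193 genes, each by its highest-mean probe set.

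Values were analysed as log2(intensity + 16) without further scaling in limma 3.58.1 (R 4.3.3), with a mean per group over all 24 arrays (18 residual degrees of freedom, prior 0.71), two-sided tests, and Benjamini-Hochberg adjustment over all genes at 0.05. The procedure was tested on simulated data. Single values were compared with exact permutation tests over 70 orderings (Python 3.11.15). The slope on hair keratin or Gapdh ratio is its coefficient beside the group means. The number of arrays limits the precision, and between 49.0% and 50.9% of an array's values were under 16. Of the 46 measured genes 33 had further probe sets. The 21 of these above the dim limit had the sign of the probe set used in 17, 19, 21 and 20 cases (day 14 for the isotype and then the anti-IFNAR1 comparison, followed by day 28). For 12 genes the probe set used has the suffix _x_at or _s_at and may match other transcripts.

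The genes and lists were chosen with earlier results of these data known. Values per array were to be given for Mki67, Top2a, Ccne1, Mcm5, Rrm2, Plk1, Birc5, Foxm1 and E2f1 and for up to 4 called members with the largest change per comparison, and for the other cell cycle genes Cdkn1a and up to 6 called per comparison. Others named were chosen after their values were seen. Alternatives were other scalings, offset 1, a dim filter, the mean of all probe sets, array weights, fits of the compared arrays alone, a robust prior with trend, a replicate block, hair keratin and Gapdh covariates, and leaving out arrays.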

Additional observations from a re-analysis of the deposited data

Results flagged for a closer look

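Each of the 6 groups was checked for outlying arrays in displayed or called genes, the mean of the 46 genes and the hair keratin mean. In 18 of these 102 checks a single array stood apart from the other 3 by Dixon's ratio of the gap to the range. Chance alone flags about 1 in 20 independent checks. These checks share arrays and correlated genes, so the 18 cannot be set against that rate. Nek2 and Cenpf were checked only for their called hair keratin slopes, which leaned on anti-IFNAR1 replicate 2 of day 28. Of the 18, 10 were that array. Its hair shaft keratin mean was 12.39 and its mean of the 46 genes 8.95. Its levels were 12.22 for Mki67, 12.42 for Mcm5, 8.0 for Plk1, 9.70 for Birc5, 6.41 for Foxm1, 7.58 for E2f1, 8.26 for Nek2 and 9.05 for Cenpf, each the highest of its group.

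In syngeneic skin of day 14, replicate 3 was the lowest for Foxm1 (4.97) and Kif4 (5.97) and the highest in hair keratin mean (7.27). In syngeneic skin of day 28, replicate 3 was the highest for Ccne1 (7.75). In isotype skin, replicate 2 of day 14 was the highest for Foxm1 (5.64) and replicate 4 had the lowest mean of the 46 genes (8.0). At day 28, isotype replicate 4 was the highest for Rrm1 (9.58) and replicate 1 had the highest hair keratin mean (6.38).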

How the results depend on the processing

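The median differences of the 46 genes moved by less than 0.48, the pooled SD between arrays of their mean level, in all 272 alternative values, a wide limit beside the medians themselves. For isotype against syngeneic skin the median lay between 0.54 and 1.0 at day 14 (0.71 as reported) and between 0.57 and 1.26 at day 28 (0.81), and for anti-IFNAR1 against isotype skin between -0.93 and -0.63 at day 14 (-0.73) and between -1.24 and -0.57 at day 28 (-0.83). Medians near 0 had no stable sign: it ran from -0.43 to 0.22 for anti-IFNAR1 against syngeneic skin at day 28 and from -0.44 to 0.18 between days in syngeneic skin. Counts of called genes moved by over 1.5 times in 75 values and stayed within that in 234. The share of all genes called moved with the setting too. With array weights the share called lower with anti-IFNAR1 at day 14 was 7.9%, against 0.654% as reported. For genes called higher in isotype skin at day 28 it was 12.9%, against 6.66%. The counts that follow stand without that share and are not results about the 46 genes alone. For isotype against syngeneic skin at day 14 (3 called), the count was 9 without the dimmest genes, 0 with only the arrays compared, 18 with array weights, 1 with the replicate block, 11 with the hair keratin covariate, 10 without the arrays of high hair keratin, 14 with hair keratin and Gapdh covariates, 0 without the arrays of Gapdh ratio above 4, 10 without the high-hair anti-IFNAR1 array and 9 when the hair covariate was added to that. For the same comparison at day 28 (2 called), it was 8 without the dimmest genes, 5 with the mean of all probe sets, 27 with array weights, 0 with the replicate block, 29 with hair keratin, 8 without the high-hair arrays, 7 with the Gapdh covariate, 31 with both covariates, 0 without the arrays of Gapdh ratio above 4 and 10 without the high-hair anti-IFNAR1 array. For anti-IFNAR1 against isotype skin at day 14 (0 called), it was 21 with array weights and 2 without the high-hair arrays. At day 28 (0 called), it was 1 with quantile normalization, 1 with offset 1, 9 without the dimmest genes, 3 with the mean of all probe sets, 29 with array weights, 20 with hair keratin, 28 without the high-hair arrays, 3 with the Gapdh covariate, 23 with both and 25 with the hair covariate and without the high-hair anti-IFNAR1 array. For the slope on hair keratin (3 called), it was 0 with quantile normalization, 1 with median centring, 43 with array weights, 6 with the replicate block, 1 with keratin-associated proteins in the level, 1 with hair matrix and root sheath genes as the level, and 0 in arrays without high hair keratin or of Gapdh ratio up to 4. Array weights gave 1 call in isotype skin between days and 1 in the change of the anti-IFNAR1 effect. Except for fewer genes or arrays tested, the cause was not tested.

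Leaving out each array in turn gave 0 to 11 called genes for isotype against syngeneic skin at day 14 and 0 to 7 at day 28, 0 to 27 for anti-IFNAR1 against isotype skin at day 28 and 0 to 23 for the slope. In the arrays without high hair keratin the slopes of Mki67 (-0.17), Nek2 (-0.02), Cenpf (-0.14), Brca1 (-0.18) and Sgo1 (-0.16) were negative.

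The replicate numbers were not taken to pair the arrays. Of 60 same-numbered pairs, 17 correlated above 0.1 in their deviations (median -0.03, lowest -0.62), and 2 of 24 arrays correlated best with their own number. With the numbers as a replicate block the counts were 1 and 0 for isotype against syngeneic skin at day 14 and day 28. The alternatives with both covariates, with the high-hair anti-IFNAR1 array left out together with the covariate, and without arrays of high Gapdh ratio were chosen after seeing the data.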
